A study of Mus musculus with 6 samples.

Results

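The 34 genes described here encode voltage-gated potassium channel subunits of the Kcna, Kcnb, Kcnc, Kcnd, Kcnf, Kcng, Kcnh, Kcnq, Kcns and Kcnv subfamilies. Their chromatin accessibility was followed in nuclei of the mouse ventral tegmental area, a midbrain region that holds dopaminergic neurons of the reward system. A region belonged to a gene when it overlapped the gene's RefSeq bounds extended by 10 kb on each side. This rule used position alone and took 694 of the 193148 accessible regions in the deposited tables. All 34 genes had at least 1 region, from 1 at Kcnv1 to 68 at Kcnq5. Of the 694 regions, 688 passed the filter on low counts and 6 were not tested. At the edge of the 10 kb rule, a Kcnh4 region lay 9963 bp from the gene and was taken in (log2 fold change -0.50). A Kcnv1 region 10073 bp away was not (log2 fold change -1.15).

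The study compared the hemizygous genotypes written Ogtflox+/Y and Ogtflox-/Y, with 3 libraries each. Ogt is an X-linked gene whose enzyme attaches O-GlcNAc sugar to nuclear and cytoplasmic proteins, and the series describes the comparison as an Ogt knockdown. Mice of either genotype received AAV-TH-Cre, a viral Cre recombinase named for tyrosine hydroxylase, together with AAV-DIO-H2B-EGFP, a Cre-dependent label of nuclei, in the ventral tegmental area. The EGFP-positive nuclei were then sorted, so the control libraries carry the same vectors. No source used here gives ages, the number of animals per library or which exons are floxed, and the protocols describe a general DNA library kit without a transposition step. Groups follow the genotype label, although the title of Ogtflox+/Y library 1 names the Ogtflox-/Y genotype. Grouped by title instead, 0 of the 34 genes and 0 of their regions were called by edgeR (81 regions and 3 genes at an unadjusted p under 0.05), so every call below rests on the genotype label.

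A voltage-gated potassium channel is a ring of 4 subunits around a pore that opens when the membrane depolarises. The potassium current that follows repolarises the cell, sets the width of the action potential and limits how fast a neuron can fire again. Kcna, Kcnb, Kcnc and Kcnd subunits form the classical Kv channels, while Kcnf, Kcng, Kcns and Kcnv subunits do not form channels alone and modify Kv channels they join. Kcnh genes encode the ether-a-go-go family and Kcnq genes the family that carries the M-current, a slow current that restrains repetitive firing. In midbrain dopaminergic neurons, A-type current through Kcnd channels is known for slowing the pacemaker rhythm.

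Read totals were 34384319 to 66853563 in the control libraries and 41025728 to 42678585 in the Ogtflox+/Y libraries. Of these, 36.6% to 38.2% and 31.0% to 37.0% fell in regions, and 3 reads in a region equalled 0.117 to 0.238 CPM (the read count of a region scaled to the library's reads in all regions, with TMM factors). Of 9 regions of Ogt itself, 4 were higher and 2 lower in Ogtflox+/Y. The most accessible had 11.1, 11.1 and 9.09 CPM in controls against 17.9, 14.98 and 14.7 CPM. As the floxed exons are not known here, this does not check the labels. Start regions of the 6 dopaminergic markers (Th, Slc6a3, Slc18a2, Ddc, Pitx3, Nr4a2) summed to 202 to 406 CPM in controls and 199 to 267 CPM in Ogtflox+/Y, with 0 of 6 called by edgeR or DESeq2 and 1 at an unadjusted edgeR p under 0.05. Most of this sum is Th alone, with 177.9, 378.7 and 245.2 CPM in controls and 237.9, 182.5 and 172.3 CPM in Ogtflox+/Y. The range and overlap of the sum are thus mainly those of Th. Astrocyte markers summed to 7.60 to 8.52 CPM in controls against 28.4, 11.02 and 27.2 CPM in Ogtflox+/Y libraries 1 to 3, with 3 of 4 higher. GABAergic markers summed to 31.0 to 41.3 against 46.8 to 63.2 CPM (2 of 3 higher) and endothelial markers to 7.37 to 9.85 against 3.88 to 5.59 CPM (1 of 2 lower). Oligodendrocyte markers spanned 47.3 to 50.7 against 35.0 to 68.2 CPM (3 of 6 higher, 1 lower). Of the 3 gains, Mag (9.90, 0.16 and 0.80 CPM in Ogtflox+/Y) and Mog (5.97, 0.95 and 0.86 CPM) rested mainly on Ogtflox+/Y library 1. The glutamatergic marker Slc17a6 had 10.2 to 13.4 against 7.41 to 13.8 CPM. The microglial marker P2ry12 had 0.38 to 0.86 against 0.60 to 1.97 CPM, and neither was called. The astrocyte, GABAergic and endothelial sums did not overlap between genotypes, while the oligodendrocyte, dopaminergic, glutamatergic and microglial values did. The part of these cells in the results below was not tested. In bulk nuclei, a change in the number of cells of a type and a change in accessibility per cell cannot be told apart.

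RefSeq promoter windows of build GRCm38.p6 (mm10) were matched by symbol to 23 of the 34 genes, 28 windows in all. They are shown for 5 of the genes whose listed start is also the outer bound of the gene. Other genes meet this too, such as Kcna4 and Kcnh7, so the 5 are examples. Kcna3, Kcnh5 and Kcnh8 had higher start regions in Ogtflox+/Y, and Kcna5 and Kcnd2 did not pass the test. Each sequence is the 250 bases before the start, read 5′ to 3′ on the gene's strand, with GC boxes (GGGCGG or its reverse complement) in capitals. Kcna3 lies at chr3:107035912-107036161 on the plus strand, Kcna5 at chr6:126535556-126535805 on the minus strand, Kcnd2 at chr6:21215096-21215345 on the plus strand, Kcnh5 at chr12:75177333-75177582 on the minus strand and Kcnh8 at chr17:52602459-52602708 on the plus strand.
Kcna3: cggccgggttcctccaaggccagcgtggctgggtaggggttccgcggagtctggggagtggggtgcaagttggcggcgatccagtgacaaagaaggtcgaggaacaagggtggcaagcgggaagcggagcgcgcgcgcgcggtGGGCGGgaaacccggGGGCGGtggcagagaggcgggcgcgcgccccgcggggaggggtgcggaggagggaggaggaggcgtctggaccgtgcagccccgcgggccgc
Kcnh5: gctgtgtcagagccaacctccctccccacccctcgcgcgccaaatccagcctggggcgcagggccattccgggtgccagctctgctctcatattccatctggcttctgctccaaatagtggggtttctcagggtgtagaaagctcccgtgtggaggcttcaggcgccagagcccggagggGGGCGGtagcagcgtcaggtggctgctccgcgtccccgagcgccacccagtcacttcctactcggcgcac
Kcnh8: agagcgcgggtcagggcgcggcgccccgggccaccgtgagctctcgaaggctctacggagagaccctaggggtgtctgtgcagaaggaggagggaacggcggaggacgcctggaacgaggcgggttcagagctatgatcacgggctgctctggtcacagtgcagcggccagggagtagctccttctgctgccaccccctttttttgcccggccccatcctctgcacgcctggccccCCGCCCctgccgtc
Kcna5: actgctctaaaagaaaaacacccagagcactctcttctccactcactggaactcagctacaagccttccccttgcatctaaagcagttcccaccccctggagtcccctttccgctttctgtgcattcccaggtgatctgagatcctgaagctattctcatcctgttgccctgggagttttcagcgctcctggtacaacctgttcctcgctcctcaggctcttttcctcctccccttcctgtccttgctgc
Kcnd2: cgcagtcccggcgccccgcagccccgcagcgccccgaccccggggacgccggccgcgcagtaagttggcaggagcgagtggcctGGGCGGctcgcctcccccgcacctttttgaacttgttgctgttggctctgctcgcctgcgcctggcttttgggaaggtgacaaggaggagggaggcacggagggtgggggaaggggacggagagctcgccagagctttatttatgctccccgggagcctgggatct
Kcna3 carried 2 GC boxes in these bases, Kcnh5, Kcnh8 and Kcnd2 1 each, and Kcna5 0. These 5 do not show a link between GC boxes and calls. Among windows not printed, Kcna6 had 0 GC boxes and a higher start region, and Kcng3 had 4 and did not pass the test. GC content of the printed bases was 74.4% for Kcna3, 68.8% for Kcnd2, 68.4% for Kcnh8, 65.6% for Kcnh5 and 53.2% for Kcna5. The ratio of observed to expected CpG over the full 300-base window was 0.95 for Kcna3 and 0.20 for Kcna5, the latter a window with few CpG dinucleotides. Over all 28 windows of the family, the median GC content was 65.7%, against 56.3% in 21262 windows of protein-coding genes and 52.7% in all 32851 windows. The median CpG ratio was 0.61 against 0.57 and 0.38. A GC box stood in 18 of 28 windows (64.3%), against 46.2% of protein-coding and 35.7% of all windows. Searched on both strands, the STAT motif TTCNNNGAA, the AP-1 motif TGANTCA and the cyclic AMP response element TGACGTCA matched 0 of the 28 windows and 8.30%, 7.81% and 1.79% of all windows. The nuclear receptor motif AAAGGTCA matched 1 of 28, at Kcnh1, and 1.51% of all windows. These are matches of letters in 300 bases and say nothing about binding.

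Across the family, accessibility moved in both directions and about as often as in the genome at large. Of 688 regions tested, 83 (12.1%) were higher and 78 (11.3%) lower in Ogtflox+/Y at an edgeR adjusted p under 0.05, where 15.4% of all 191693 regions tested were higher and 12.7% lower. The median log2 fold change was -0.03 over the family and -0.01 over all regions. Control and Ogtflox+/Y libraries did not overlap in 278 of the 688 regions. The same count was not made over all regions, so it does not set the family apart. Among the 83 higher regions, Ogtflox+/Y library 2 was the one nearest the controls in 43.4%, against 49.4% over the genome. For the 78 lower regions these shares were 41.0% and 37.4%. Scaling by library totals moved the median of all regions to -0.27 and cut the higher share of all calls from 55.0% to 21.8%. In the family it left 37 regions higher and made 172 lower, so the balance of gains and losses depends on the scaling. Without control library 2 the calls were 53 higher and 48 lower, and without control library 1 the losses numbered 51. Each call below was repeated in 11 alternative fits: DESeq2, no filter on low counts, each of the 6 libraries left out, scaling by library totals, scaling by reads in regions, and Ogtflox+/Y library 2 alone against the controls.

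**Figure D1:**
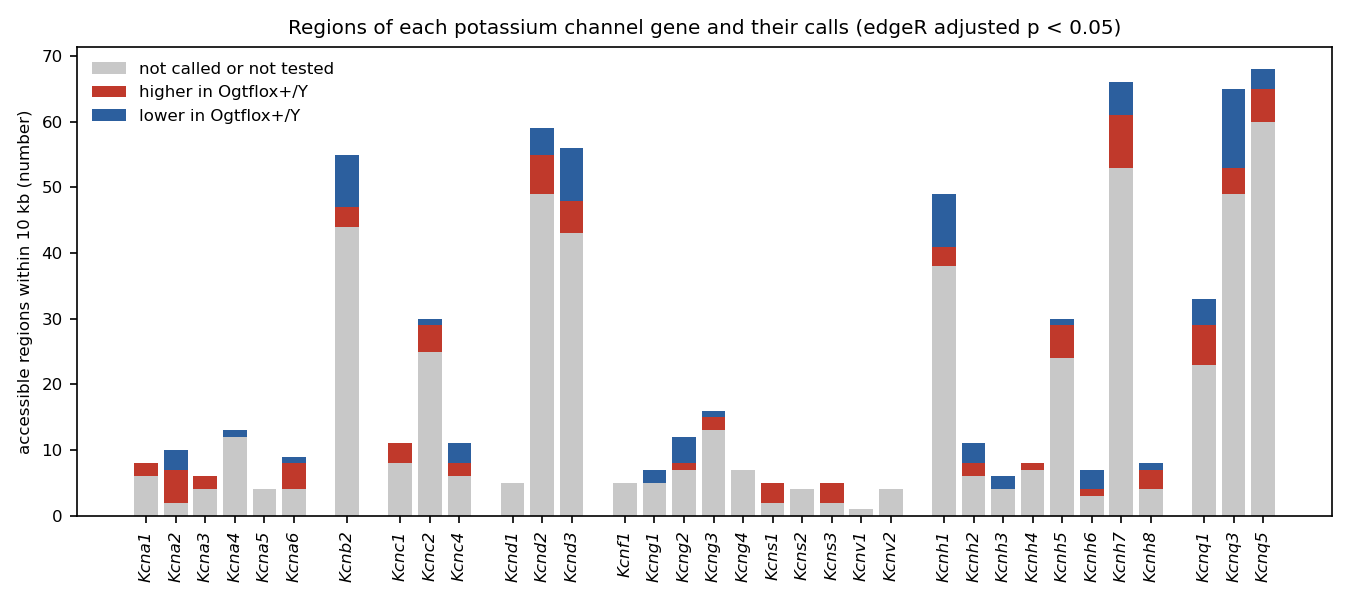
Bars give the number of accessible regions within 10 kb of each gene, split by edgeR call into higher, lower and not called or not tested. Kcnq5 (68), Kcnh7 (66) and Kcnq3 (65) hold the most regions and Kcnv1 holds 1, with both colours present at most of the long genes.

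Called regions at gene starts were mostly gains, in the family as over all genes. A start region, the most accessible one within 1 kb of the listed start (of either gene bound for the 11 genes with no listed start), existed for 30 of the 34 genes. Kcnd1, Kcnq1, Kcnv1 and Kcnv2 had none, and gene bounds stood in for a listed start at Kcna1, Kcnb2, Kcng1, Kcng2, Kcnh3, Kcnq3 and Kcns2. In Ogtflox+/Y 11 of the 30 were higher and 1 lower, where 36.3% of the start regions of all 13154 protein-coding genes were higher and 6.19% lower. Their median log2 fold change was 0.24, against 0.22 over all genes. The same holds for all regions within 1 kb of a start: 36.2% of 58 in the family were higher and 5.17% lower, against 36.7% and 5.31% over all genes. Regions inside the gene bodies were higher in 9.51% and lower in 11.3% of 547, against 11.2% and 13.7% over all genes. In the flanking 10 kb the shares were 12.05% and 15.7% of 83 regions, against 14.6% and 17.8%. Start gains thus stood at the genome-wide rate. They numbered 3 of 30 with scaling by library totals and 7 with scaling by reads in regions, and 7 without control library 2 or without control library 3. The 1 loss became 0 without either of these or Ogtflox+/Y library 1.

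**Figure D2:**
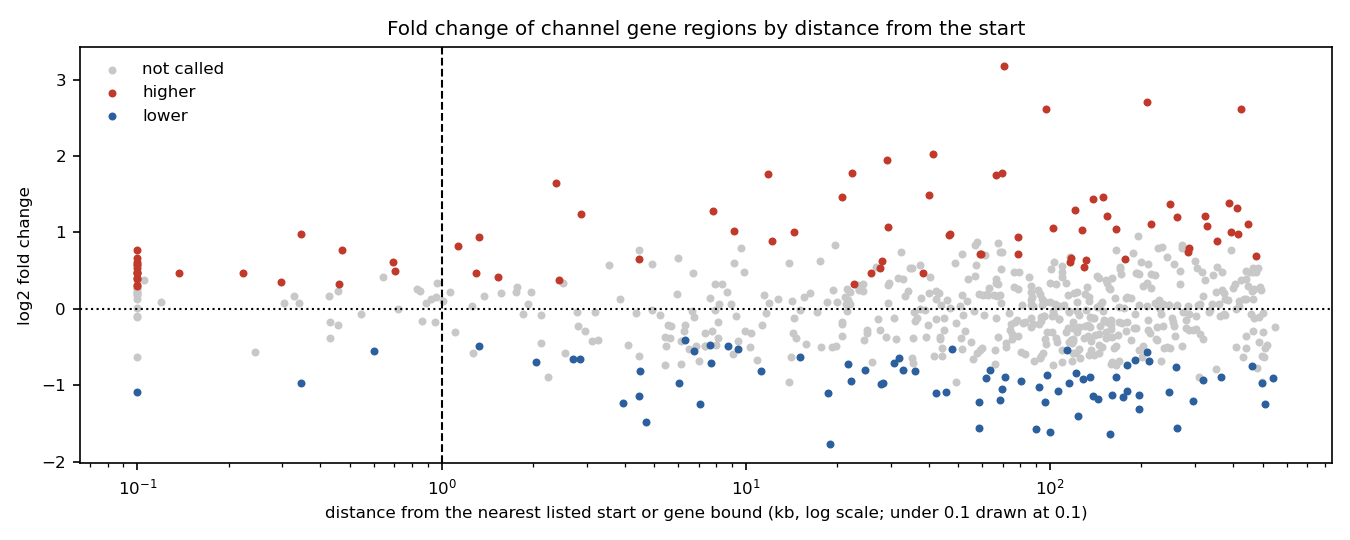
Each point is a tested region of the family, placed by its distance from the nearest listed start or gene bound (kb, log scale) and by its log2 fold change. Left of the 1 kb line 21 of 58 regions are higher and 3 lower, and to its right both directions are mixed.

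Per kilobase of region, the start of Kcnc1 was the most accessible in the family (79.4 CPM per kb), followed by Kcnq3 (73.0), Kcnb2 (72.8), Kcnh1 (71.7), Kcna1 (66.2) and Kcna6 (64.7). Kcnh6 was the least accessible (4.39), preceded by Kcng1 (7.09) and Kcns1 (7.32). Neighbours in this order at the top, Kcnq3, Kcnb2 and Kcnh1, differed by less than the spread between libraries. Among the start regions of all protein-coding genes, the median member stood at percentile 33.5 and Kcnc1 at percentile 73.9.

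**Figure D3:**
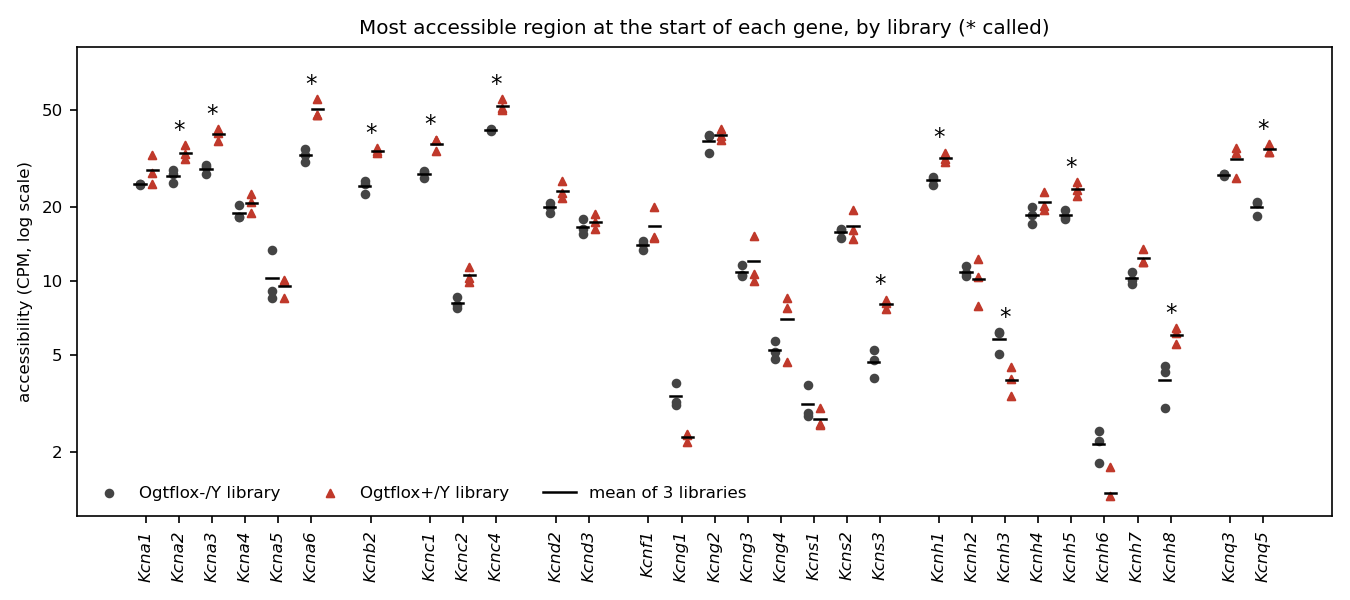
Points give the CPM (log scale) of each member's start region in the 3 control and the 3 Ogtflox+/Y libraries, with a line at each mean of 3 libraries. The triangles of Ogtflox+/Y lie above the control circles without overlap at every start called higher, among them Kcna6, Kcnb2, Kcnq5 and Kcns3. They also do so at the uncalled Kcnc2, Kcnd2, Kcnf1 and Kcnh7. They lie below at Kcnh3 and at the uncalled Kcng1 and Kcnh6.

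Kcna genes encode the Kv1 subunits of axons and nerve terminals, and called regions near them were mostly gains. Of 50 regions tested, 13 were higher and 5 lower, with a median log2 fold change 0.14 above that of all regions. Kcna2 had 5 higher and 3 lower of 10, Kcna6 4 and 1 of 9, Kcna1 2 and 0 of 8, Kcna3 2 and 0 of 6, Kcna4 0 and 1 of 13, and Kcna5 0 and 0 of 4. Within 50 kb in place of 10 kb, the Kcna median lay 0.07 below that of all regions, and within 10 kb but without Ogtflox+/Y library 3 it lay 0.074 above.

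The start of Kcna6 (chr6:126740180-126740818) had 32.7, 34.4 and 30.6 CPM in controls and 47.4, 47.6 and 55.1 CPM in Ogtflox+/Y. All 3 Ogtflox+/Y libraries stood above the controls (log2 fold change 0.62, SE of 0.10, edgeR's adjusted p = 0.00027), in each of the 11 alternative fits. At Kcna3, a Kv1.3 gene well known from lymphocytes, the start region (chr3:107035949-107036737) had 29.1, 29.7 and 27.4 CPM in controls and 41.6, 40.2 and 37.3 CPM in Ogtflox+/Y. The groups did not overlap (log2 fold change 0.47, SE of 0.10, edgeR's adjusted p = 0.0019), and the call was lost with library totals (0.20, adjusted p = 0.17). Kcna2, which encodes the Kv1.2 subunit, had 24.99, 27.2 and 28.4 CPM at its start in controls (chr3:107101406-107102194) and 32.8, 31.3 and 35.7 CPM in Ogtflox+/Y. This smaller difference (log2 fold change 0.31, SE of 0.10, edgeR's adjusted p = 0.028) held in 3 of 11 alternative fits. It was lost without control library 1, 2 or 3 (adjusted p = 0.083, 0.092 and 0.051) and without Ogtflox+/Y library 3 (0.097). Starts of Kcna1, Kcna4 and Kcna5 did not pass the test, with log2 fold changes of 0.20, 0.13 and -0.09.

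The strongest loss among the Kcna genes lay 18996 bp from the Kcna2 start (chr3:107120563-107120963). Controls had 2.51, 2.19 and 2.41 CPM there and Ogtflox+/Y 0.68, 0.63 and 0.73 CPM, a log2 fold change of -1.77 (SE of 0.29, edgeR's adjusted p = 0.00036) that held in all 11 alternative fits. The next region, chr3:107122312-107122712, moved the other way, from 1.06, 1.09 and 0.71 CPM to 2.72, 0.95 and 4.12 CPM (log2 fold change 1.47, SE of 0.39, edgeR's adjusted p = 0.0091). Ogtflox+/Y library 2 stood among the controls here, and with that library alone the log2 fold change was -0.02. Without control library 3 the adjusted p was 0.052, and without Ogtflox+/Y library 3 it was 0.11.

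Kcnb2, which encodes the delayed-rectifier subunit Kv2.2, was higher at its start, and most called regions of its 437 kb body were lower. Of 52 regions tested, 3 were higher and 8 lower, and the median lay 0.28 below that of all regions. Of 49 regions inside the gene 8 were lower and 2 higher, where 13.7% of inside regions of all genes were lower and 11.2% higher. At the start (chr1:15286608-15287008) controls had 22.6, 24.8 and 25.7 CPM and Ogtflox+/Y had 34.9, 33.4 and 33.8 CPM. The groups stood apart (log2 fold change 0.48, SE of 0.10, edgeR's adjusted p = 0.0018), though not with library totals (0.21, adjusted p = 0.18). Deep in the gene, chr1:15566066-15566466 fell from 2.96, 2.54 and 3.03 CPM to 0.76, 0.95 and 1.00 CPM (log2 fold change -1.64, SE of 0.27, edgeR's adjusted p = 0.00038), in all 11 alternative fits. Another body region (chr1:15602229-15602629) rose from 0.61, 0.43 and 0.95 CPM to 2.04, 1.19 and 1.59 CPM (log2 fold change 1.29, SE of 0.36, edgeR's adjusted p = 0.013). Without control library 2 or Ogtflox+/Y library 1, that adjusted p was 0.085 and 0.065. Of the 8 lower regions, 2 also lie within 10 kb of Gm51415, a neighbouring gene model.

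Kcnc genes encode Kv3 subunits, which let neurons fire at high rates. Of 52 regions tested 9 were higher and 4 lower, with 5 of the gains within 1 kb of a start, 4 inside genes and 3 of the losses in flanks. Kcnc1 had 3 higher and 0 lower of 11, Kcnc2 4 and 1 of 30, and Kcnc4 2 and 3 of 11. At the start of Kcnc1 (chr7:46396211-46396611) controls had 26.2, 27.9 and 28.0 CPM and Ogtflox+/Y 37.5, 33.8 and 37.7 CPM (log2 fold change 0.41, SE of 0.10, edgeR's adjusted p = 0.0049). A second Kcnc1 region, 692 bp from the start (beginning at 46397160), had 18.1, 20.9 and 19.7 CPM against 28.9, 28.5 and 32.6 CPM (log2 fold change 0.61, edgeR adjusted p = 0.00049). In both the groups were apart, and the first call was lost with library totals (0.14, adjusted p = 0.38).

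At Kcnc4 the start region (chr3:107459359-107460413) had 41.7, 41.3 and 40.8 CPM in controls and 50.7, 49.9 and 55.1 CPM in Ogtflox+/Y (log2 fold change 0.33, SE of 0.09, edgeR's adjusted p = 0.012). The region also lies within 10 kb of Slc6a17, and its call held in 6 of 11 alternative fits and was lost without control library 2 or 3 or Ogtflox+/Y library 3 (adjusted p = 0.055, 0.054 and 0.052). In the flank of Kcnc4, 3 regions were lower, among them chr3:107433826-107434226 with 6.00, 6.80 and 6.01 CPM in controls and 3.70, 3.49 and 3.66 CPM in Ogtflox+/Y (log2 fold change -0.80, edgeR adjusted p = 0.0042). Kcnc2 had its largest loss at chr10:112394980-112395380, from 1.98, 1.29 and 1.70 CPM to 0.60, 0.63 and 0.60 CPM (log2 fold change -1.39, SE of 0.34, edgeR's adjusted p = 0.0053). Its gain at chr10:112436449-112436849, from 0.68, 0.94 and 1.14 CPM to 1.81, 1.82 and 2.19 CPM (log2 fold change 1.04, SE of 0.29, edgeR's adjusted p = 0.013), held in 6 of 11 alternative fits. Without control library 2 or Ogtflox+/Y library 3 its adjusted p was 0.051 and 0.054.

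Kcnd genes encode the Kv4 subunits of the fast A-type current, and their 2 start regions did not pass the test in either direction (0 called by DESeq2, 1 at an unadjusted edgeR p under 0.05). Of 118 regions tested 11 were higher and 12 lower: 6 and 4 of 57 at Kcnd2, 5 and 8 of 56 at Kcnd3, and 0 and 0 of 5 at Kcnd1. All 5 Kcnd1 regions also lie within 10 kb of Gripap1 or Otud5. At the start of Kcnd2, the most accessible of the group (chr6:21215162-21215562), controls had 18.9, 20.1 and 20.8 CPM and Ogtflox+/Y 22.8, 25.4 and 21.9 CPM (log2 fold change 0.22, SE of 0.11, edgeR's adjusted p = 0.12). Kcnd3's start had a log2 fold change of 0.08. The called regions were scattered through 2 long gene bodies. The largest loss was in Kcnd3 (chr3:105552294-105552694), from 2.89, 3.40 and 2.89 CPM to 1.21, 1.03 and 0.80 CPM (log2 fold change -1.61, SE of 0.27, edgeR's adjusted p = 0.00039), in all 11 alternative fits. The largest gain was in Kcnd2 (chr6:21627301-21627701), from 0.76, 0.55 and 0.71 CPM to 1.51, 1.51 and 1.93 CPM (log2 fold change 1.32, SE of 0.32, edgeR's adjusted p = 0.0056).

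The modifier subunits Kcnf, Kcng, Kcns and Kcnv split by gene. Of 65 regions tested 9 were higher and 7 lower. Kcns1 and Kcns3 had 3 higher and 0 lower of 5 each, while Kcng1 had 0 and 2 of 7 and Kcng2 1 and 4 of 12. Kcng3 had 2 and 1 of 15. In Kcnf1 (5 regions), Kcng4 (7), Kcns2 (4), Kcnv1 (1) and Kcnv2 (4), 0 regions passed the test. Together with Kcna5 and Kcnd1 these are the 7 members with no called region, where 5 of 30 regions reached an unadjusted edgeR p under 0.05 and DESeq2 called 0.

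Kcns3, which encodes the Kv9.3 modifier of Kv2 channels, had 4.03, 4.77 and 5.21 CPM at its start in controls (chr12:11149503-11149903) and 7.64, 8.08 and 8.37 CPM in Ogtflox+/Y. The groups stood apart (log2 fold change 0.77, SE of 0.17, edgeR's adjusted p = 0.0032) in all 11 alternative fits. In Kcns1, the Kv9.1 gene, a region inside the gene (chr2:164168336-164168736) had 3.27, 3.40 and 4.50 CPM in controls and 10.9, 11.6 and 12.8 CPM in Ogtflox+/Y (log2 fold change 1.65, SE of 0.17, edgeR's adjusted p = 4.8e-06). A flanking region (chr2:164158877-164159277) went from 1.06, 0.55 and 0.85 CPM to 2.87, 1.19 and 3.85 CPM (log2 fold change 1.76, SE of 0.37, edgeR's adjusted p = 0.0023) and to 0.58 with Ogtflox+/Y library 2 alone (adjusted p = 0.53). Yet the start region of Kcns1 had a log2 fold change of -0.21 and did not pass. All 5 Kcns1 regions also lie within 10 kb of Wfdc5 or Stk4, so they cannot be assigned to Kcns1 alone.

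Kcng1 encodes the Kv6.1 modifier. Its larger loss lay 7101 bp outside the gene (chr2:168252616-168253016), from 3.27, 4.06 and 2.98 CPM to 0.91, 2.30 and 1.196 CPM (log2 fold change -1.25, SE of 0.29, edgeR's adjusted p = 0.0045). Ogtflox+/Y library 2 was nearest the controls, and with it alone the log2 fold change was -0.61 (adjusted p = 0.25). Kcng2, the Kv6.2 gene, has no listed start in the table used. At its lower bound the most accessible region of the group (chr18:80295433-80296205), shared with Slc66a2, had 33.3, 39.0 and 39.3 CPM in controls and 38.9, 37.7 and 41.5 CPM in Ogtflox+/Y, with overlap (log2 fold change 0.08, SE of 0.10, edgeR's adjusted p = 0.58). At its upper bound chr18:80363214-80363910 fell from 10.3, 8.79 and 6.87 CPM to 4.46, 3.17 and 5.45 CPM (log2 fold change -0.97, SE of 0.21, edgeR's adjusted p = 0.0025).

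Kcnh genes encode the ether-a-go-go, ERG and ELK channels, and their gains and losses were even in number. Of 185 regions tested 23 were higher and 23 lower. Kcnh1 had 3 higher and 8 lower of 49, Kcnh2 2 and 3 of 11, Kcnh3 0 and 2 of 6, Kcnh4 1 and 0 of 8, Kcnh5 5 and 1 of 30, Kcnh6 1 and 3 of 7, Kcnh7 8 and 5 of 66, and Kcnh8 3 and 1 of 8. At Kcnh4 7 of these regions, at Kcnh6 6 and at Kcnh3 4 also lie within 10 kb of a gene outside the family. Calls among the shared regions of Kcnh4 and Kcnh6 cannot be assigned to these genes alone, and at Kcnh3 0 of the shared regions were called. At Kcnh5 (Kv10.2) the start region (chr12:75176636-75177036) had 18.2, 19.4 and 17.8 CPM in controls and 25.3, 23.5 and 22.3 CPM in Ogtflox+/Y (log2 fold change 0.36, SE of 0.11, edgeR's adjusted p = 0.018). The call held in 7 of 11 alternative fits, and was lost without control library 3 (adjusted p = 0.074), with either other scaling (0.59 with library totals, 0.069 with reads in regions) and with Ogtflox+/Y library 2 alone (0.14). At Kcnh1 (Kv10.1), the most accessible start of the group (chr1:192190508-192190908), controls had 24.6, 26.5 and 26.0 CPM and Ogtflox+/Y 33.3, 30.7 and 31.3 CPM (log2 fold change 0.30, SE of 0.10, edgeR's adjusted p = 0.025). This call held in 4 of 11 alternative fits and was lost without control library 1, 2 or 3 (adjusted p = 0.065, 0.074 and 0.070) or Ogtflox+/Y library 1 (0.060).

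Kcnh8, an ELK channel gene, had few regions for its 376 kb and 3 of the 8 were higher. Just upstream of its start (chr17:52600750-52601386) controls had 8.96, 9.02 and 7.39 CPM and Ogtflox+/Y 16.3, 17.4 and 14.9 CPM (log2 fold change 0.94, SE of 0.13, edgeR's adjusted p = 0.00012). The start region itself (chr17:52602459-52602859) had 3.04, 4.26 and 4.50 CPM against 5.52, 6.42 and 6.11 CPM (log2 fold change 0.59, SE of 0.20, edgeR's adjusted p = 0.031). That second call held in 3 of 11 alternative fits and was lost without control library 1 or 2 (adjusted p = 0.11 and 0.073) or Ogtflox+/Y library 2 or 3 (0.070 and 0.061). Inside the gene, chr17:52810793-52811193 went from 0.30, 0.16 and 0.38 CPM to 2.80, 0.95 and 1.66 CPM (log2 fold change 2.71, SE of 0.46, edgeR's adjusted p = 0.00049), and to 1.77 with Ogtflox+/Y library 2 alone (adjusted p = 0.10). Control levels there are near the level of 3 reads.

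Kcnh3, another ELK gene, was the 1 member whose start region passed the test as lower. This depends on the choice of the most accessible region: at Kcng2, with no listed start, the region at the other bound was lower. Starts of Kcnh6 and Kcng1 had log2 fold changes of -0.63 and -0.56, also with no overlap between groups, and did not pass (edgeR adjusted p = 0.097 and 0.067). At chr15:99223519-99223919 controls had 5.01, 6.13 and 6.15 CPM and Ogtflox+/Y 3.40, 3.96 and 4.45 CPM (log2 fold change -0.56, SE of 0.19, edgeR's adjusted p = 0.039). The call held in 6 of 11 alternative fits and was lost without control library 2 or 3 (adjusted p = 0.14 and 0.11) or Ogtflox+/Y library 1 (0.14). A second region on the same gene bound (beginning at 99224316) fell from 3.11, 3.63 and 3.79 CPM to 1.06, 1.82 and 2.06 CPM (log2 fold change -1.09, edgeR adjusted p = 0.0047). In Kcnh2, the ERG1 gene, the start had a log2 fold change of -0.10 and did not pass, while chr5:24344034-24344434 inside the gene rose from 11.6, 11.7 and 11.3 CPM to 23.1, 20.8 and 25.3 CPM (log2 fold change 1.00, edgeR adjusted p = 1.6e-05). Kcnh7, the ERG3 gene, had the largest loss of the subfamily that was above 1 CPM on average (chr2:63125258-63125658), from 1.67, 2.15 and 1.94 CPM to 0.68, 0.95 and 0.86 CPM (log2 fold change -1.22, SE of 0.30, edgeR's adjusted p = 0.0059). Starts of Kcnh4, Kcnh6 and Kcnh7 did not pass the test.

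Kcnq genes encode Kv7 subunits. Of 166 regions tested 15 were higher and 19 lower: 6 and 4 of 33 at Kcnq1, 4 and 12 of 65 at Kcnq3 and 5 and 3 of 68 at Kcnq5. Kcnq5, a subunit of the M-current, had the largest fold change of any start region of the family, ahead of Kcns3 (0.77). Its start region (chr1:21961225-21962024) had 18.3, 20.7 and 21.1 CPM in controls and 36.1, 33.6 and 33.7 CPM in Ogtflox+/Y, with wide separation (log2 fold change 0.78, SE of 0.10, edgeR's adjusted p = 4.4e-05) in all 11 alternative fits. Inside Kcnq5, chr1:21765084-21765484 fell from 2.66, 1.33 and 2.27 CPM to 0.83, 1.03 and 0.60 CPM (log2 fold change -1.31, SE of 0.34, edgeR's adjusted p = 0.0087), but not without Ogtflox+/Y library 3 (adjusted p = 0.054).

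The largest fold change of any region of the family averaging at least 1 CPM was inside Kcnq1, the gene of the cardiac and epithelial KvLQT1 channel (chr7:143355798-143356198). Only the Ogtflox+/Y libraries brought it to that mean. Controls had 0.08, 0.43 and 0.24 CPM, within reach of the 3-read level, and Ogtflox+/Y had 2.65, 2.22 and 2.86 CPM (log2 fold change 3.18, SE of 0.38, edgeR's adjusted p = 1.9e-05), in all 11 alternative fits. The astrocyte marker sums differed between the same groups, and their part in this gain was not tested. Another Kcnq1 region (chr7:143385382-143385782) went from 0.61, 1.09 and 0.71 CPM to 3.18, 3.01 and 4.05 CPM (log2 fold change 2.03, edgeR adjusted p = 8.2e-05). The 4 lower Kcnq1 regions began between 143110828 and 143176558 and the 6 higher ones between 143295586 and 143386484, so losses and gains lay in separate parts of the gene. Kcnq3, the partner subunit of the M-current, showed 12 losses spread over 300.3 kb. At its bound the most accessible start of the group (chr15:66286624-66287024) had 26.7, 27.3 and 27.2 CPM in controls and 34.8, 26.2 and 33.4 CPM in Ogtflox+/Y, with overlap through Ogtflox+/Y library 2 (log2 fold change 0.22, SE of 0.11, edgeR's adjusted p = 0.15; 0.32 and 0.025 without that library).

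**Figure D4:**
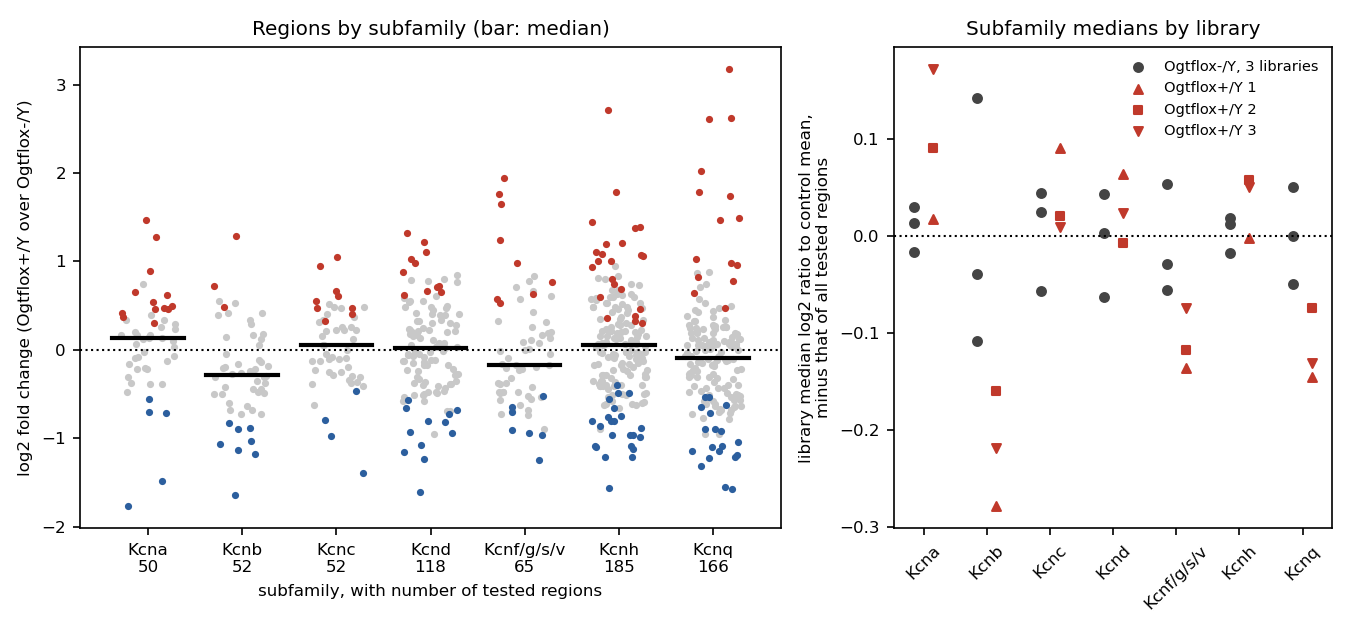
The left panel shows the log2 fold change of each tested region by subfamily, and the right panel each library's median ratio to the control mean minus that of all tested regions. The 3 Ogtflox+/Y medians of Kcnb2 lie between -0.28 and -0.16 and those of Kcna between 0.02 and 0.17, while control libraries spread from -0.11 to 0.14 in Kcnb2.

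Set side by side, the 7 subfamily groups differed in their median log2 fold change. Minus the median of all regions it was 0.14 for Kcna, 0.06 for Kcnc, 0.06 for Kcnh and 0.03 for Kcnd. It was -0.09 for Kcnq, -0.16 for the modifiers and -0.28 for Kcnb2. Per library, the Kcnq medians of Ogtflox+/Y (-0.15, -0.07 and -0.13) lay below the control ones (-0.05, 0.00 and 0.05), as did those of the modifiers (-0.14, -0.12 and -0.08 against -0.06, -0.03 and 0.05) and of Kcnb2 (-0.28, -0.16 and -0.22 against -0.11, -0.04 and 0.14). The modifier median turned to 0.014 with gene bounds alone and to 0.054 with bounds extended by 50 kb. For Kcna, Kcnc, Kcnd and Kcnh the 2 groups of libraries overlapped. How often other sets of regions stand apart in this way was not counted, so it does not mark out any subfamily. Each control library is also part of the control mean it was compared with. The subfamilies also differ in where their regions lie. Within 1 kb of a start lay 12 of 50 Kcna regions, 5 of 166 Kcnq regions and 2 of 52 Kcnb2 regions. Flanks held 25 of 65 modifier regions. Over all genes the median log2 fold change was 0.25 at starts, -0.08 inside genes and -0.11 in flanks. The part of position in the subfamily medians was not tested. Among members of 100 kb or more (11 genes), gains made up 10.1% and losses 10.7% of 514 regions, and among shorter members (23 genes) 17.8% and 13.2% of 174. Over all genes these shares were 10.97% and 13.6% for long and 20.8% and 11.9% for short genes.

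Reads were also summed over all regions of each gene, which weights the most accessible regions. Of the 34 genes 5 were higher (Kcna3, Kcna6, Kcnh8, Kcns1, Kcns3), 6 lower (Kcnb2, Kcnd3, Kcng1, Kcng2, Kcnh1, Kcnq3) and 23 did not pass, where 18.3% of 17789 genes were higher and 19.9% lower. Without control library 2 the lower genes numbered 2, without control library 3 there were 3 higher and 2 lower, and without Ogtflox+/Y library 1 the lower genes numbered 3. The median log2 fold change was -0.05 over the members and 0.00 over all genes. Kcns1 had summed levels of 9.75, 9.45 and 11.8 CPM in controls and 16.9, 19.7 and 20.7 CPM in Ogtflox+/Y (log2 fold change 0.88, SE of 0.13, edgeR's adjusted p = 0.00015). Kcng1 had 26.1, 27.2 and 25.9 CPM against 15.8, 20.3 and 14.2 CPM, with no overlap (log2 fold change -0.66, SE of 0.12, edgeR's adjusted p = 0.00052).

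Kcns3 went from 9.18, 10.5 and 12.2 CPM to 15.9, 16.6 and 14.4 CPM (log2 fold change 0.55, SE of 0.13, edgeR's adjusted p = 0.0047). Kcnh8 went from 14.98, 17.7 and 18.9 CPM to 25.5, 27.4 and 22.4 CPM (log2 fold change 0.54, SE of 0.11, edgeR's adjusted p = 0.0016), and Kcng2 from 75.6, 77.3 and 78.3 CPM to 56.4, 59.7 and 67.1 CPM (log2 fold change -0.34, SE of 0.07, edgeR's adjusted p = 0.0012). These 5 genes kept their call in each of the 11 alternative fits, none of which left out shared regions. All regions of Kcns1 are shared with a gene outside the family, so its sum cannot be assigned to Kcns1 alone. The window mattered for 3 of them: with bounds extended by 50 kb, Kcng1 gave 0.10 and Kcns3 0.14 (adjusted p = 0.31 and 0.28), and with gene bounds alone Kcnh8 gave 0.30 (adjusted p = 0.16).

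The other 6 calls were small. Log2 fold changes were 0.22 for Kcna3 and Kcna6, -0.23 for Kcnb2, Kcnh1 and Kcnq3, and -0.21 for Kcnd3, and the calls held in 8, 8, 6, 7, 8 and 6 of 11 alternative fits in that order. Each was lost without control library 3 (adjusted p = 0.063 for Kcna3, 0.051 for Kcna6, 0.17 for Kcnb2, 0.14 for Kcnh1, 0.10 for Kcnq3 and 0.18 for Kcnd3). With library totals Kcna3 and Kcna6 gave 0.10 each (adjusted p = 0.54 and 0.59). Without control library 2, Kcnb2, Kcnh1, Kcnq3 and Kcnd3 were lost too (adjusted p = 0.056, 0.061, 0.083 and 0.15). Without Ogtflox+/Y library 1 the adjusted p was 0.090 for Kcnb2 and 0.13 for Kcnh1 and Kcnd3, without library 2 it was 0.086 for Kcna3, and without library 3 it was 0.085 for Kcna6 and 0.088 for Kcnb2. Kcnb2 and Kcnh1 had a higher start and a lower sum, so the 2 measures of a gene need not move together. When the 56 regions shared with a gene outside the family were left out, Kcnb2 and Kcnd3 were no longer lower (adjusted p = 0.074 and 0.0502), and Kcnh3 (-0.88, adjusted p = 0.0020) and Kcnc4 (-0.33, adjusted p = 0.016) became so. Kcns1 and Kcnd1, with all 5 regions shared, had no region left to fit, so the Kcns1 gain could not be tried this way.

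**Figure D5:**
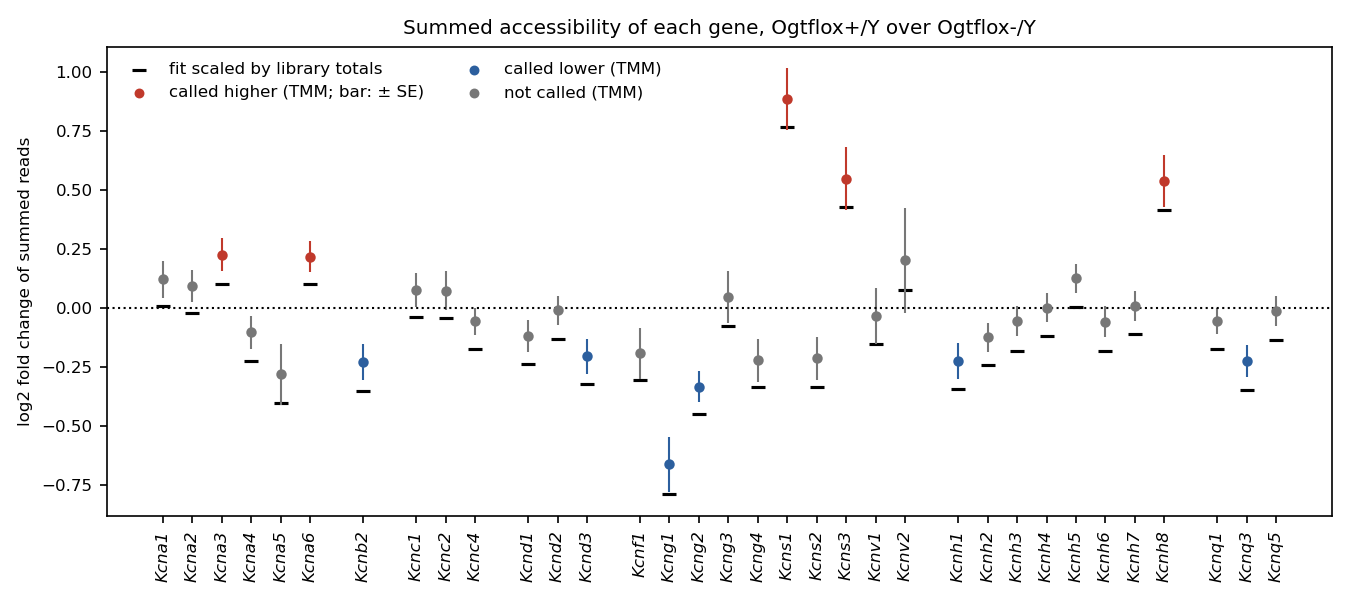
Points show the log2 fold change of summed reads of each gene with its SE, coloured by call, and dashes the same under scaling by library totals. Kcns1 (0.88) and Kcng1 (-0.66) mark the ends of the range, and the dashes lie below the points.

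The auxiliary and partner proteins of these channels were read the same way, from a list of 17 genes. It holds the Kcnab beta subunits, the Kcnip calcium-binding subunits and Dpp6 and Dpp10 of Kv4 channels, the Kcne single-pass subunits, and the Kv1 and Kv2 partners Amigo1, Cntnap2, Lgi1 and Adam22. Of 1013 regions tested 78 (7.70%) were higher and 148 (14.6%) lower, against 15.4% and 12.7% of all regions, and their median log2 fold change was -0.10. Without control library 2 the counts were 49 higher and 82 lower, and without control library 1 they were 47 and 95. Losses were most numerous at Dpp6 (47 of 181, with 9 higher), Cntnap2 (35 of 291, with 12 higher) and Kcnip4 (21 of 167, with 13 higher). These genes and Dpp10 (118 regions tested) held most of the 1013 regions. Over all genes of 100 kb or more, 10.97% of regions were higher and 13.6% lower, and the auxiliary genes were not split by length. On summed reads, where 19.9% of all genes were lower and 18.3% higher, 7 of the 17 genes were lower: Dpp6 (-0.34, edgeR adjusted p = 0.0069), Cntnap2 (-0.30), Kcnip3 (-0.28), Adam22 (-0.27), Kcne3 (-0.37), Kcnip4 (-0.18) and Kcnab2 (-0.16). Kcnip2 was the 1 gene that was higher (0.17, edgeR adjusted p = 0.038).

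Of 15 start regions 4 were higher (2 by DESeq2) and 0 lower by edgeR or DESeq2, with 0 lower at an unadjusted p under 0.05, against 36.3% higher and 6.19% lower over the starts of all protein-coding genes. At the start of Dpp6 (chr5:27261792-27262477) controls had 16.5, 20.9 and 18.4 CPM and Ogtflox+/Y 21.7, 27.8 and 28.0 CPM (log2 fold change 0.47, SE of 0.12, edgeR's adjusted p = 0.0091). The Cntnap2 start (chr6:45059524-45059924) had 16.3, 17.8 and 16.95 CPM against 22.2, 20.3 and 25.8 CPM (log2 fold change 0.42, SE of 0.12, edgeR's adjusted p = 0.011), and in both the groups were apart. Kcnip4 and Lgi1 were the other two. Dpp6, Cntnap2 and Kcnip4 thus had a higher start and a lower sum, as Kcnb2 and Kcnh1 did among the channel genes.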

How the data were processed

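ATAC-seq was measured in 6 libraries, 3 Ogtflox+/Y and 3 Ogtflox-/Y. Tools named in the submitters' processing notes, without roles, are BWA, MACS2, Picard, SAMtools 1.9, Trimmomatic and FastQC, with build mm10. How reads were counted, whether they were shifted for transposase cuts and how regions were defined is not given in the sources used here. Per the file headers, each region carries a read count, an RPKM and a score. Counts are deposited as whole numbers and were tested without change. RPKM as deposited served to work out library totals. The score, a depth-scaled count signal as deposited, was not used. Of the 193148 regions common to all libraries, 94.6% are 401 bp wide.

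Counts were fitted over all regions with edgeR 4.0.16 (R 4.3.3), using its quasi-likelihood test, TMM scaling, its low-count filter and group as the only term. Benjamini-Hochberg adjustment covered all 191693 regions tested, and a call is an adjusted p under 0.05. The same test was run on reads summed per gene over 17789 genes. Fold changes are Ogtflox+/Y over Ogtflox-/Y, and CPM are counts scaled to the library's reads in regions with TMM factors. SE was worked out from the test, as the absolute log2 fold change over the square root of its F statistic. Gene bounds and listed starts came from the RefSeq table of GRCm38.p6, which gave a start for 23 of 34 members. Exons and introns were not told apart. A level of 3 reads covers counting error only.

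Per-library values are given for called start regions, the most accessible start of each subfamily group, and the called region of largest fold change in each direction per group with a mean of at least 1 CPM. This mean is over all 6 libraries, so a region can reach it through the group where it is high. At the largest gains the control mean was 0.25 (Kcnq1) to 0.96 CPM (Kcna2). At the largest losses the Ogtflox+/Y mean was 0.61 (Kcnc2) to 1.47 CPM (Kcng1). Other regions were chosen after their values were seen. Members, lists and tests were chosen with earlier results of these data known. Nothing in the labels says that libraries came from separate animals, so p-values measure the spread between these libraries. Alternatives were DESeq2 1.42.0, no filter, each library left out, 2 other scalings, Ogtflox+/Y library 2 alone, grouping by title, other window sizes and no shared regions. The fit code was tested on simulated data. Protein sequences were not analysed here.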

Additional observations from a re-analysis of the deposited data

How the results depend on the processing

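The 83 higher and 78 lower regions of the family became 37 and 172 with library totals, 41 and 35 with Ogtflox+/Y library 2 alone, and 129 and 124 with bounds extended by 50 kb. DESeq2 called 61 higher and 44 lower, and leaving out 1 library gave 53 to 76 higher (fewest without control library 2) and 48 to 86 lower. The 11 higher starts became 3 with library totals, 7 with reads in regions, 5 with library 2 alone and 7 to 12 with 1 library left out. The 1 lower start became 3 with either scaling and 0 with DESeq2 or library 2 alone, and 0 to 1 with 1 library left out. Auxiliary regions, 78 higher and 148 lower, became 42 and 85 with DESeq2, 30 and 280 with library totals, 34 and 53 with library 2 alone, and 47 to 71 and 82 to 146 with 1 library left out. Member genes on summed reads, 5 higher and 6 lower, became 3 and 10 with library totals, 3 lower with library 2 alone, and 3 to 5 and 2 to 8 with 1 library left out. Grouping by title gave 0 in each of these counts.

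Subfamily medians minus that of all regions moved as follows. With 50 kb they were -0.068 for Kcna, -0.092 for Kcnc, 0.054 for modifiers and 0.0087 for Kcnh, and with gene bounds alone 0.23 for Kcnc and 0.014 for modifiers. With library 2 alone they were -0.19 for Kcnb, -0.020 for Kcnd and -0.13 for modifiers. Grouping by title gave -0.13 for Kcnb, 0.11 for Kcnc, -0.079 for modifiers, 0.11 for Kcnh and -0.036 for Kcnq. Leaving out 1 library gave 0.074 to 0.18 for Kcna, -0.37 to -0.17 for Kcnb, -0.017 to 0.15 for Kcnc, -0.042 to 0.049 for Kcnd, -0.19 to -0.099 for modifiers, 0.0039 to 0.077 for Kcnh and -0.12 to -0.068 for Kcnq.

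Signs turned at uncalled starts with library totals for Kcnd2 (-0.042), Kcng2 (-0.18) and Kcnq3 (-0.044), with reads in regions for Kcng2 (-0.036), and with library 2 alone for Kcng2 (-0.0058) and Kcnq3 (-0.067). The called Kcna2 region beginning at 107122312 turned to -0.020 with library 2 alone, and the Kcng1 sum to 0.10 with 50 kb. The cause of these shifts was not tested. All 29 regions with per-library values by rule kept direction and call without the low-count filter. No paired analysis was possible because the title numbers of the 2 groups share no number. Depth limits regions near the 3-read level of 0.117 to 0.238 CPM, such as the control values at Kcnq1 and Kcnh8.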

Other observations

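Kcna genes lie in clusters, and the regions between neighbours were read as well. On chromosome 6, 46 regions lie from Kcna5 through Kcna1 to Kcna6, over 213.7 kb, and 9 were higher and 7 lower in Ogtflox+/Y. All 6 lower regions outside the 10 kb windows lie between Kcna5 and Kcna1 (starts 126553826 to 126604900), and the 3 higher ones outside the windows lie between Kcna1 and Kcna6 (126661102 to 126685155). One of the losses, chr6:126604900-126605300, had 3.72, 2.97 and 3.27 CPM in controls and 1.21, 1.82 and 1.53 CPM in Ogtflox+/Y (log2 fold change -1.11, edgeR adjusted p = 0.0033). One of the gains, chr6:126661102-126661502, had 0.76, 0.74 and 0.71 CPM against 2.65, 1.19 and 2.39 CPM (log2 fold change 1.498, edgeR adjusted p = 0.0030). On chromosome 3, 22 regions span Kcna3 and Kcna2 over 92.2 kb, with 9 higher and 4 lower. Over all regions tested, 15.4% were higher and 12.7% lower, and the 2 clusters were not tested against these shares.

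Kcnq1 contains Kcnq1ot1, a long noncoding RNA gene known for genomic imprinting, at chr7:143213111-143296547. Of its 7 regions 1 was higher, chr7:143295586-143295986, with 6.08, 5.59 and 4.97 CPM in controls and 8.54, 7.61 and 9.70 CPM in Ogtflox+/Y (log2 fold change 0.65, edgeR adjusted p = 0.0086). The region on the upper bound of Kcnq1ot1, beginning at 143296467, had a log2 fold change of 0.19 and did not pass (edgeR adjusted p = 0.20). Counts without strand cannot assign these regions to Kcnq1 or to Kcnq1ot1.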
